A study of Mus musculus with 8 samples.

Results

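Npas4 and 9 immediate early genes (Fos, Fosb, Jun, Junb, Egr1, Atf3, Ier2, Ier3 and Nr4a1) were followed in the aorta of young and very old mice with a Marfan mutation. They are 10 of the 25526 gene symbols in the count tables, taken by symbol with earlier results of the same age comparison known, and all 10 passed the filter on low counts. All mice were male and carried the C1041G allele of Fbn1 on 1 chromosome (MFS in the labels), a fibrillin-1 missense change used to model Marfan syndrome in mice. Bulk RNA sequencing gave 4 libraries of aortic tissue taken at 12 weeks of age and 4 of tissue taken at 2 years, and the series set growing aneurysms at the first age against growth-arrested ones at the second. Both groups carried the allele and no wild-type aorta was analysed here, so ageing and disease stage cannot be told apart. Whether each library came from a separate mouse is not stated, so the spread and p-values describe these libraries. The handling of the tissue between death and RNA isolation is not given in the sources used here.

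Immediate early genes are transcribed within minutes of a stimulus by factors that the cell already holds, chiefly CREB and the serum response factor, and their transcripts are short-lived. Fos and Fosb proteins pair with the Jun proteins to form AP-1, a dimer that binds DNA through basic leucine zippers. In the vessel wall, stretch, growth factors and angiotensin II are known to switch on this class of genes. Npas4 is a basic helix-loop-helix PAS factor best known from neurons, where calcium entry switches it on and where it pairs with an Arnt protein.

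The promoters are shown because these genes are defined by how they are switched on. RefSeq windows (build GRCm38.p6) were found for 8 of the 10 genes, and Ier2 and Egr1 are named only. The 250 bases before the start are given for Npas4 (chr19:4989972-4990221, minus strand), Fos (chr12:85473640-85473889, plus strand), Junb (chr8:84978749-84978998, minus strand) and Nr4a1 (chr15:101266596-101266845, plus strand). They are written 5′ to 3′ along the gene, and capitals mark the short cAMP response element TGACG on either strand (CGTCA where it lies on the other strand), the TATA box TATAAA in Fos and the Egr element GCGNGGGCG in Nr4a1.
Npas4: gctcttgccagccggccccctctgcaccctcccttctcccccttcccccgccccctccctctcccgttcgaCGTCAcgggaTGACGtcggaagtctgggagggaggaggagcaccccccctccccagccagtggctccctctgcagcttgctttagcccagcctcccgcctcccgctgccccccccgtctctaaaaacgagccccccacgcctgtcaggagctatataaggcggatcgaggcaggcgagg
Fos: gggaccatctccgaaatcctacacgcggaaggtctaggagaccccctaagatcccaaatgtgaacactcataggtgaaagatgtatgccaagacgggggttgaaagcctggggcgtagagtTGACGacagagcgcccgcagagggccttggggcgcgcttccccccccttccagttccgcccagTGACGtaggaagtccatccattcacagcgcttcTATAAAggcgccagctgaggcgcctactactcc
Junb: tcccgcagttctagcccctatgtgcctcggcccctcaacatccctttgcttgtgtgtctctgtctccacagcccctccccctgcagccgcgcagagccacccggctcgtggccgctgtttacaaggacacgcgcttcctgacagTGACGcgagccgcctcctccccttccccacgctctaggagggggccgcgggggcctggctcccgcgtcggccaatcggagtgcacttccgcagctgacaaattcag
Nr4a1: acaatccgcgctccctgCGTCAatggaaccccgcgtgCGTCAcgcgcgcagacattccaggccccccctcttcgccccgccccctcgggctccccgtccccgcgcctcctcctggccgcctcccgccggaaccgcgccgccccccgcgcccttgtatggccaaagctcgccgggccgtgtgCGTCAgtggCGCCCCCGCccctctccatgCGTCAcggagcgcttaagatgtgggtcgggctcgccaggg
The short element TGACG, to which CREB is known to bind, was present in 6 of the 8 windows and in 17.8% of 32851 RefSeq windows of the same length. Nr4a1 held 4 copies, Npas4 and Fos 2 each, and Fosb, Junb and Atf3 1 each. In Npas4 the copies lay on opposite strands and pointed away from each other, at 179 to 175 and 169 to 165 bases before the start. The Fos copy at 66 to 62 bases lay upstream of TATAAA at 33 to 28 bases. TATAAA was found in Fos alone among the 8 windows and in 12.4% of all windows, and GCGNGGGCG was found in Fosb and Nr4a1 and in 4.7% of all. None of the 8 windows held the full element TGACGTCA (1.5% of all windows), the AP-1 element TGANTCA (6.7%) or the CArG box of the serum response factor (1.5%). Any TGACGTCA is also counted under TGACG. The member windows were 54.4% to 74.4% GC, against a median of 52.4% over all windows. These are letter matches and do not show binding. Elements further than 250 bases before the start, or in Egr1 and Ier2, were not searched.

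The libraries held 16251986 to 33880690 counts, of which 4.14% to 10.3% were mitochondrial, highest in 2-year replicate 3. All 7 smooth muscle markers had counts at both ages, with summed levels of 28190 to 33810 counts per 1e6 counts (CPM) at 12 weeks and 16470 to 24960 CPM at 2 years. The 12-week replicate 3 stood apart in cardiomyocyte markers, at 1068 CPM against 73.91 to 145.8 CPM in the other 7 libraries, and was highest of the young libraries in adipocyte markers, at 553.6 CPM against 103 to 192.5 CPM. edgeR's quasi-likelihood test called 52.0% of 13978 tested genes different between the ages (Benjamini-Hochberg adjusted p below 0.05), 25.8% higher and 26.2% lower at 2 years. The median log2 fold change of all tested genes was -0.01. Fold changes are 2 years over 12 weeks, with their standard error (SE). Because the 10 genes were chosen with this contrast known, their values are a description, and a call says only on which side of the threshold a gene lay.

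Of the 10 genes, Junb, Ier3 and Ier2 were called higher at 2 years, Npas4 was called lower, and 6 were not called. The libraries of the 2 ages did not overlap for Junb, Ier3 and Npas4, a pattern seen in 49.6% of tested genes (24.3% with the old libraries above and 25.3% with them below). Neither count is read further, since the contrast served to choose the genes. Their median log2 fold change was 0.10. Values thus ran in both directions. For Fosb, Jun, Atf3 and Nr4a1 the difference between the group means was smaller than the SD of the 12-week group.

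**Figure D1:**
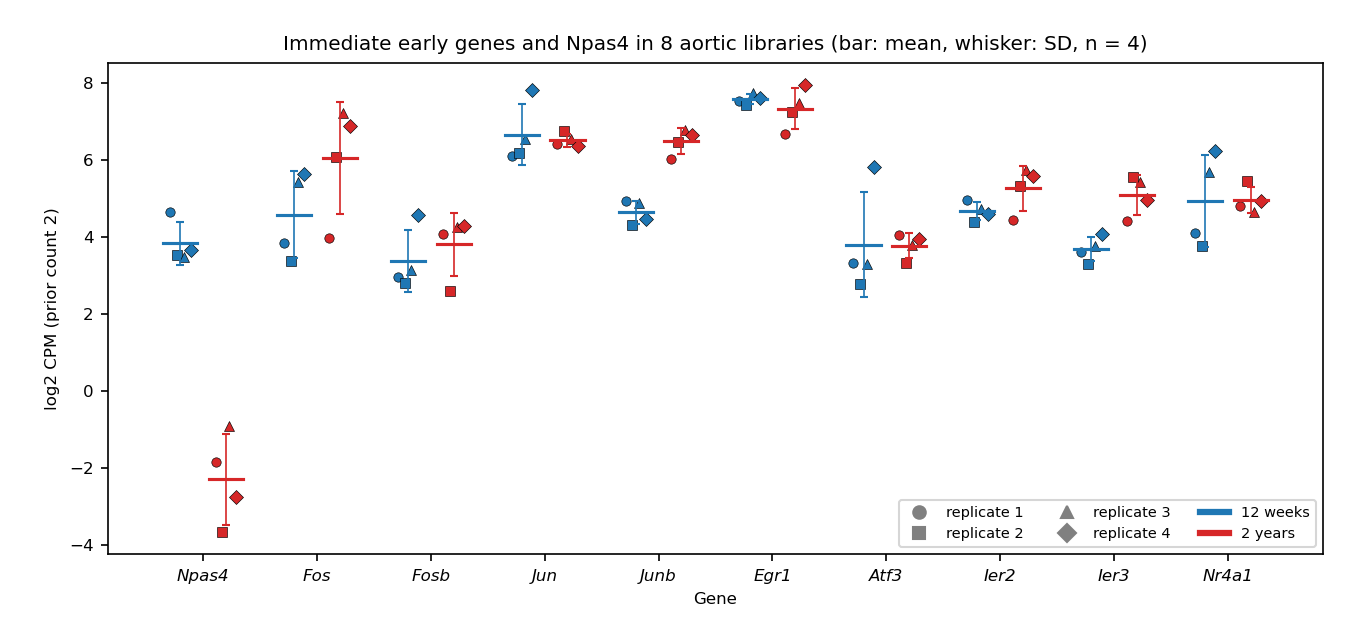
Log2 CPM (prior count 2) of each of the 10 genes at 12 weeks (blue) and 2 years (red), 1 symbol per replicate, with the group mean as a bar and the SD as a whisker (n = 4). Npas4 lies between 11.06 and 25.2 CPM at 12 weeks and at or below 0.455 CPM at 2 years, Junb and Ier3 lie higher in all 2-year libraries, and 12-week replicate 4 lies above the other young libraries for Fosb, Jun, Atf3 and Nr4a1.

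Npas4 was present in every young library and close to undetected in every old one. Its level at 12 weeks was 25.2, 11.55, 11.06 and 12.53 CPM in replicates 1 to 4, or 577, 300, 299 and 309 counts. At 2 years it was 0.1997, 0, 0.4551 and 0.06944 CPM, or 7, 0, 7 and 2 counts. The lowest young library thus lay far above the highest old one, and replicate 1 lay above the other young libraries. A count of 0 in 2-year replicate 2 allows a level of up to 0.128 CPM, a limit of 3 counts that covers counting error only. The group means were 15.1 ± 6.77 CPM (SD, n = 4) and 0.181 ± 0.201 CPM (SD, n = 4), with a log2 fold change of -6.53 (SE 0.58), the value that ranked as number 6 from the lowest of 13978. Without 2-year replicate 3, the old library with the highest Npas4 level, the log2 fold change was -7.15, and under the other alternatives it lay between -7.27 and -6.16. In bulk tissue, fewer cells of a type that carries a transcript and less transcript per cell cannot be told apart.

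The sum of the neuronal markers was higher, not lower, at 2 years. All 12 neuronal markers had counts at 12 weeks and 11 of 12 at 2 years, when Dbh, the enzyme that makes noradrenaline, was at 0. Their summed level was 4.979 to 10.65 CPM at 12 weeks and 15.75 to 19.9 CPM at 2 years. The Schwann cell markers summed to 20.83 to 38.8 CPM at 12 weeks and 40.51 to 62.09 CPM at 2 years. Smooth muscle markers were lower at 2 years, with 4 of 7 called lower and none higher, and their part in the Npas4 result was not tested.

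The genes beside Npas4 on the chromosome had no change of similar size. Mrpl11, a mitochondrial ribosomal protein gene, rose from 15.1 ± 1.52 to 23.0 ± 6.21 CPM (log2 fold change 0.60, edgeR adjusted p = 0.0162), a call lost in 4 of 16 alternatives. Slc29a2, a nucleoside transporter gene, was not called, with 2.26 ± 0.481 and 1.59 ± 0.228 CPM (log2 fold change -0.50, edgeR adjusted p = 0.141). No annotated gene of GENCODE M21 overlapped Npas4. These neighbours were picked by position.

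The 5 tested genes most like Npas4 across the 8 libraries were Leng8, Lgals4, Rgs11, Adam1a and Fam193b. Likeness was the root mean square difference between centred log2 CPM profiles, which was 0.82 for Leng8 and 1.11 for Fam193b. Leng8 fell from 374 ± 107 CPM at 12 weeks to 13.6 ± 6.52 CPM at 2 years (log2 fold change -4.79, edgeR adjusted p = 6.46e-06). Its highest young library was also replicate 1, at 532 CPM, and its highest old library was also replicate 3, at 21.46 CPM. Lgals4, which encodes a galectin, was at 3.204 to 5.328 CPM at 12 weeks and at or below 0.3901 CPM at 2 years. Fam193b fell from 57.55 ± 17.5 to 2.92 ± 0.605 CPM (log2 fold change -4.31, edgeR adjusted p = 6.65e-07). All 5 share with Npas4 the split between the ages, which enters this measure.

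Among the FOS genes, Fos varied most. Its level at 12 weeks was 14.32, 10.32, 42.87 and 50.16 CPM in replicates 1 to 4. At 2 years it was 15.75, 67.42, 149 and 118.7 CPM. Of the old libraries, 3 of 4 lay above all young ones, while 2-year replicate 1 lay among the young libraries. The means were 29.4 ± 20.0 and 87.7 ± 58.6 CPM (SD, n = 4 each), the log2 fold change was 1.57 (SE 0.75) and Fos was not called. Without 2-year replicate 1 the log2 fold change was 1.92 and passed the threshold. The summed level of the 6 adipocyte markers, all with counts at both ages and none of them called, was 103, 129.9, 553.6 and 192.5 CPM at 12 weeks and 242.9, 467.2, 770.5 and 283.5 CPM at 2 years. Like Fos, it was lower in 12-week replicates 1 and 2 than in replicates 3 and 4, and among the old libraries it was lowest in replicate 1 and highest in replicate 3. The summed Schwann cell markers met the same description. They were at 20.83, 23.53, 38.8 and 28.39 CPM at 12 weeks and 40.51, 44.1, 62.09 and 42.32 CPM at 2 years. The likeness of these sums to Fos was seen among 13 marker lists, and their part in the Fos values was not tested.

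Fosb, whose product also pairs with Jun proteins, showed no such separation. Its level at 12 weeks was 7.774, 6.931, 8.766 and 23.68 CPM, and at 2 years it was 16.78, 5.971, 19.25 and 19.55 CPM. The groups overlapped through a high young library, replicate 4, and a low old one, replicate 2. The log2 fold change was 0.38 (SE 0.47) and not called. Without 12-week replicate 4 it was 0.97 and passed the threshold.

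Junb, a Jun protein known to activate transcription more weakly than Jun at many AP-1 sites, separated the ages. Its level was 30.44, 19.95, 29.26 and 21.98 CPM at 12 weeks and 64.96, 88.92, 110.5 and 101.4 CPM at 2 years. The lowest old library lay well above the highest young one. The means were 25.4 ± 5.22 and 91.4 ± 19.7 CPM (SD, n = 4 each), with a log2 fold change of 1.85 (SE 0.20) that stayed between 1.74 and 1.98 in all 16 alternatives. Junb overlaps Prdx2, a peroxiredoxin gene on the other strand, which rose from 77.1 ± 9.31 to 136 ± 16.2 CPM (log2 fold change 0.82, edgeR adjusted p = 0.000505). The strand setting of the counting is not given in the sources used here, so reads of the pair cannot be told apart where they overlap.

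Jun itself gave a different picture. Its level was 68.96, 72.58, 93.03 and 226 CPM at 12 weeks and 85.13, 107.8, 92.91 and 83.12 CPM at 2 years. The old libraries lay close together, and 12-week replicate 4 lay far above all 7 others. The log2 fold change was -0.32 (SE 0.35), not called, and 0.23 without that library. An antisense transcript, Junos, overlaps Jun and was not analysed here.

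Within the JUN family the transcript make-up differed between the ages. Per kilobase of transcript, Junb made up 11.3%, 10.9%, 12.2% and 6.0% of Jun, Junb and Jund together at 12 weeks, and 22.1%, 26.1%, 26.2% and 26.0% at 2 years. The groups did not overlap, with means of 10.1% ± 2.79 and 25.1% ± 1.97 (SD, n = 4 each). Jund, the family member expressed at a steadier level in many tissues, remained the largest share, at 66.4% ± 6.14 and 60.2% ± 2.77. Jund itself was not called (160 ± 39.0 and 201 ± 35.2 CPM, log2 fold change 0.32, edgeR adjusted p = 0.177). In the FOS family, Fos made up 35.8% ± 16.12 of the total at 12 weeks and 55.6% ± 23.44 at 2 years, with overlapping libraries. Fosl2 was the other large share, at 39.1% to 68.9% in the young and 20.9% to 63.2% in the old libraries, and Fosl1 stayed at or below 3.9% in all 8 libraries. These shares rest on the contrast used to choose the genes and carry no test.

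**Figure D2:**
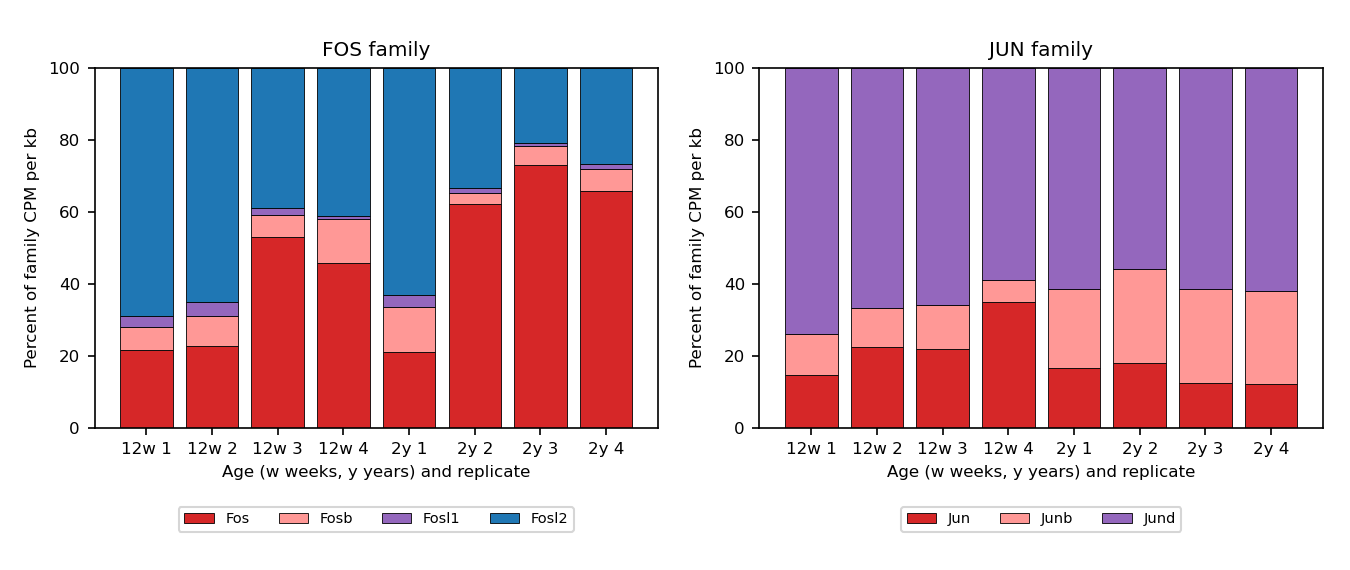
Share (percent) of each gene in the summed CPM per kilobase of its family, as stacked bars from 0 to 100% for each of the 8 libraries, with the FOS and the JUN family in separate panels. Junb takes 6.0% to 12.2% of the JUN family at 12 weeks and 22.1% to 26.2% at 2 years, while the Fos share runs from 21.1% to 73.1% within the 2-year group.

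Egr1, a zinc finger factor induced by growth factors and stretch, was the most abundant of the 10 per kilobase at 12 weeks. Its level was 184.1, 173.8, 216 and 194.6 CPM at 12 weeks and 101.6, 152.7, 180.2 and 246.1 CPM at 2 years. The young libraries lay close together and inside the range of the old ones. The log2 fold change was -0.18 (SE 0.22), not called, and 0.09 when transcript length and GC were modelled as an offset (below, the offset).

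Atf3, a basic leucine zipper factor induced by cell stress, was set apart by 1 library. It was at 9.87, 6.738, 9.765 and 56 CPM at 12 weeks and at 16.58, 10.02, 13.72 and 15.28 CPM at 2 years. All 4 old libraries lay above the first 3 young ones and below 12-week replicate 4. The log2 fold change was -0.56 (SE 0.67), not called, and without that library it was 0.66 and passed the threshold, in the opposite direction.

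Nr4a1, an orphan nuclear receptor, was at 17.16, 13.52, 51.23 and 75.23 CPM at 12 weeks and at 27.73, 43.71, 25.16 and 30.62 CPM at 2 years. The old libraries all fell inside the range of the young ones. The log2 fold change was -0.30 (SE 0.53), not called, and 0.21 without 12-week replicate 4.

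Close relatives of these factors were taken by family. Egr2 rose from 9.58 ± 2.48 to 18.3 ± 6.33 CPM (log2 fold change 0.94, edgeR adjusted p = 0.00971). Egr3 (log2 fold change -0.37, edgeR adjusted p = 0.225), Nr4a2 (log2 fold change -0.48, edgeR adjusted p = 0.252) and Nr4a3 (log2 fold change 0.61, edgeR adjusted p = 0.0804) were not called. Nr4a3 passed the threshold in 5 of the 16 alternatives.

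Ier3, a small protein induced by growth factors and inflammatory signals and known to affect cell survival, separated the ages. It was at 12.14, 9.78, 13.5 and 16.83 CPM at 12 weeks and at 21.34, 47.47, 43.3 and 31.01 CPM at 2 years. Every old library lay above every young one. The means were 13.1 ± 2.94 and 35.8 ± 11.9 CPM (SD, n = 4 each), with a log2 fold change of 1.45 (SE 0.25). Ier3 has the shortest transcript of the 10, at 1131 nucleotides, and under the offset it stood at 0.79 on the log2 scale and was still called.

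Ier2, another short early response protein, was at 30.92, 21.02, 26.56 and 24.25 CPM at 12 weeks and at 21.51, 40.09, 53.12 and 47.64 CPM at 2 years. The groups overlapped through 2-year replicate 1, while the other 3 old libraries lay above all young ones. The log2 fold change was 0.66 (SE 0.24), and its call was lost in 11 of 16 alternatives, which ran from 0.34 to 0.87.

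Transcript length bears on these values because the log2 fold change fell with transcript length across 13632 tested genes (Spearman's rho -0.42, across genes, which are not independent replicates). The 10 transcripts run from 1131 nucleotides for Ier3 to 4484 for Egr1. With the offset, the log2 fold change was -6.33 for Npas4, 0.79 for Ier3 and 0.38 for Ier2.

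**Figure D3:**
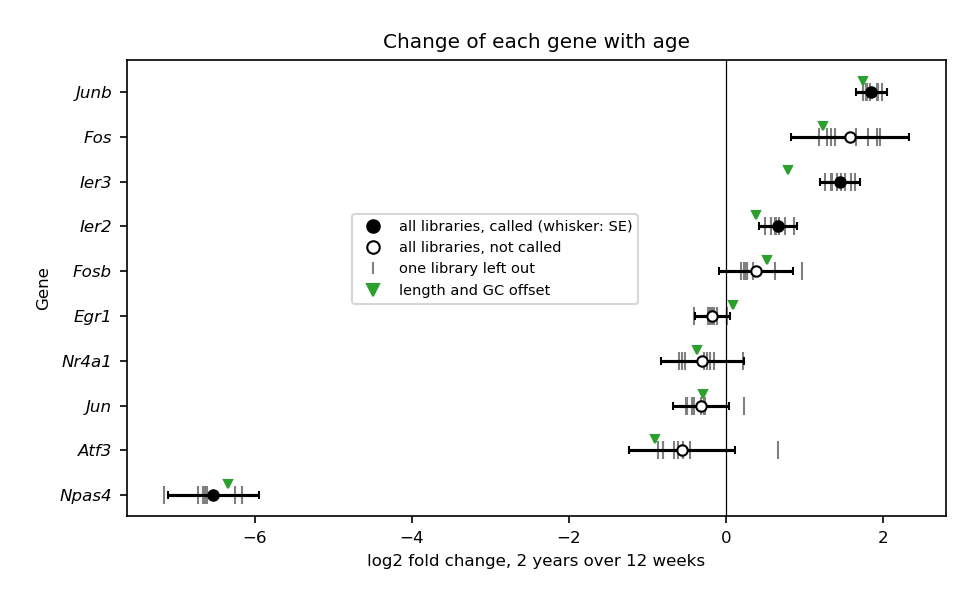
Log2 fold change (2 years over 12 weeks) of each of the 10 genes in the edgeR fit, with 1 SE as a whisker, filled where called. Ticks are fits with 1 library left out and triangles the fit with the offset. All marks of Junb lie above 0 and all of Npas4 at or below -6.16, while the ticks of Jun, Nr4a1, Egr1 and Atf3 fall on both sides of 0.

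Ordered by mean CPM per kilobase, which can be compared between genes, the young aorta held most Egr1 (42.9 ± 4.03) and Jun (36.1 ± 23.4). Ier2 (16.9 ± 2.73), Nr4a1 (15.4 ± 11.5), Junb (14.04 ± 2.89), Fos (13.96 ± 9.50), Ier3 (11.6 ± 2.60) and Atf3 (10.4 ± 11.9) followed, and neighbours in that stretch differed by less than their SD. Npas4 (4.17 ± 1.87) and Fosb (3.12 ± 2.11) were lowest. In the old aorta Junb led with 50.5 ± 10.9, ahead of Fos (41.6 ± 27.8), Egr1 (37.95 ± 13.4), Ier3 (31.6 ± 10.5), Jun (28.9 ± 3.51) and Ier2 (26.7 ± 9.06), again with neighbours within their SD. Nr4a1 (12.5 ± 3.23), Atf3 (7.01 ± 1.43) and Fosb (4.07 ± 1.69) came next, and Npas4 was last at 0.04999 ± 0.0554.

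The spread among libraries of 1 age was wide for most of these genes. The SD of log2 CPM exceeded the median of all tested genes for 9 of the 10 at each age, the medians being 0.19 at 12 weeks and 0.27 at 2 years. At 12 weeks 6 of the 10 lay at or above percentile 90 of all tested genes, among them Atf3 (SD 1.36), Nr4a1 (SD 1.20) and Fos (SD 1.13). At 2 years 3 of the 10 did, namely Fos (SD 1.45), Npas4 (SD 1.19, from counts of 0 to 7) and Fosb (SD 0.81). Jun went from an SD of 0.79 to 0.17, and Egr1 from 0.13 to 0.53. The difference in spread between the ages was not tested.

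The high and low values fell in particular libraries. At 12 weeks, replicate 4 was highest for 6 of the 10 genes (Fos, Fosb, Jun, Atf3, Ier3 and Nr4a1) and replicate 2 was lowest for 8. At 2 years, replicate 1 was lowest for 5 (Fos, Junb, Egr1, Ier2 and Ier3) and replicate 3 highest for 4. The summed level of the 10 genes was 400.9, 346.2, 502.1 and 701.3 CPM at 12 weeks and 371.5, 564.1, 687.6 and 693.4 CPM at 2 years, so the libraries of the 2 ages overlapped.

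Other inducible genes were also high in 12-week replicate 4, and are named after their values were seen. Hspa1a, which encodes the inducible chaperone HSP70, was at 249.4 CPM there and at 27.08 to 33.77 CPM in the other young libraries. Its near-identical copy Hspa1b was at 307.6 against 31.27 to 40.24 CPM, and counts of the pair are uncertain because reads could be split between them. Ccn1, a secreted matrix protein induced by serum and stretch, was at 641.3 against 87.91 to 186.1 CPM. That library had a mitochondrial share of 4.78%, the lowest of the young group. Of 13 cell marker sums, 7 lay within the range of the other young libraries, smooth muscle and fibroblast among them. Endothelial (749.5 against 341.1 to 689.7 CPM), neutrophil (3.528 against 2.737 to 3.157 CPM) and red blood cell markers (723.7 against 442.1 to 709.9 CPM) lay above it. Cardiomyocyte (82.2 against 108.9 to 1068 CPM), T and NK cell (2.676 against 3.273 to 5.546 CPM) and B and plasma cell markers (1.582 against 1.656 to 2.441 CPM) lay below it. The part of these measures in its values was not tested.

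The pathway around these genes was described with lists written from general knowledge. Earlier results of these data were known by then, so the counts from the lists are a description. Of 22 tested other early transcription factors, 13 rose, none fell and 9 were not called (of all tested genes, 25.8% were called higher), with a median log2 fold change of 0.58 against -0.01 for all tested genes. Cebpd, a basic leucine zipper factor of the acute phase response, rose from 19.4 ± 3.89 to 55.9 ± 9.43 CPM (log2 fold change 1.53, edgeR adjusted p = 4.32e-05). The small Maf factor gene Maff rose from 18.3 ± 2.77 to 46.4 ± 7.41 CPM (log2 fold change 1.35, edgeR adjusted p = 4.9e-05). Bhlhe40, a repressor with a clock function, rose by 1.38 (edgeR adjusted p = 0.000227) and the growth-promoting factor gene Myc by 1.16 (edgeR adjusted p = 0.000756) on the log2 scale.

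Of 33 tested early effector genes, 13 rose, 2 fell and 18 were not called (median 0.37). Over all tested genes, 25.8% were called higher and 26.2% lower. Ccl2, a chemokine that draws monocytes, rose from 0.825 ± 0.389 to 17.1 ± 5.05 CPM (log2 fold change 4.39, edgeR adjusted p = 2.19e-06). The pseudokinase gene Trib1 rose by 1.46 (edgeR adjusted p = 4.29e-06), the kinase gene Pim1 by 1.22 (edgeR adjusted p = 6.99e-05) and the prostaglandin synthase gene Ptgs2 by 1.61 (edgeR adjusted p = 0.00015) on the log2 scale. The genes that fell were F3, the starter of blood clotting (tissue factor), from 117 ± 13.4 to 68.95 ± 8.07 CPM (log2 fold change -0.77, edgeR adjusted p = 0.000673), and Gadd45g, by 1.40 on the log2 scale (edgeR adjusted p = 0.0044). Under the offset the split was 15 higher and 5 lower.

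Feedback inhibitors end early responses. Of the 19 here, 8 rose, 3 fell and 8 were not called (median 0.28, beside 25.8% of all tested genes higher and 26.2% lower). Socs3, an inhibitor of cytokine receptor signalling, rose from 5.91 ± 1.08 to 48.1 ± 22.8 CPM (log2 fold change 3.02, edgeR adjusted p = 3.82e-05). The phosphatase gene Dusp2 rose by 4.10 on the log2 scale (edgeR adjusted p = 8.81e-05). Nfkbiz, an atypical IκB protein, fell from 26.0 ± 1.66 to 8.21 ± 2.65 CPM (log2 fold change -1.67, edgeR adjusted p = 6.08e-05), and the RNA-binding protein gene Zfp36l1 fell by 0.74 on the log2 scale (edgeR adjusted p = 0.000828). Dusp10, a phosphatase gene, was the other that fell, by 0.73 (edgeR adjusted p = 0.0131). Without 12-week replicate 2, and likewise without 2-year replicate 4, 4 rose and 3 fell. In these fits 22.7% and 24.6% of all tested genes were called higher, and 23.2% and 25.4% lower.

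Of 32 upstream kinases and factors, 6 rose, 11 fell and 15 were not called (median -0.22), and under the offset 7 rose and 8 fell. Rps6ka1, the kinase RSK1 downstream of ERK, rose from 7.32 ± 1.53 to 36.95 ± 2.31 CPM (log2 fold change 2.34, edgeR adjusted p = 1.6e-06). Mrtfb, an actin-regulated partner of the serum response factor, fell from 66.95 ± 4.36 to 26.8 ± 7.48 CPM (log2 fold change -1.32, edgeR adjusted p = 0.000133). Mapkapk2, a kinase of the p38 pathway, rose by 0.77 (edgeR adjusted p = 0.000809), and the calcium-dependent kinase gene Camk2d fell by 0.80 (edgeR adjusted p = 0.000849) on the log2 scale. Srf, taken for its role, fell from 66.4 ± 7.27 to 53.1 ± 3.89 CPM (log2 fold change -0.32, edgeR adjusted p = 0.0434), a call lost in 11 of 16 alternatives. Creb1 was not called (log2 fold change -0.29, edgeR adjusted p = 0.0906), but it passed the threshold in opposite directions under 2 alternatives, higher with the offset (0.31, edgeR adjusted p = 0.0147) and lower without 12-week replicate 1 (-0.39, edgeR adjusted p = 0.0272).

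Other basic leucine zipper factors can share partners with FOS and JUN proteins. Of 18 tested, 7 rose, 3 fell and 8 were not called (median 0.02, beside 25.8% of all tested genes higher and 26.2% lower). The lymphocyte factor Batf rose by 3.23 (edgeR adjusted p = 0.000161) and Batf2 by 1.59 (edgeR adjusted p = 0.00161), while Atf7 fell by 0.78 (edgeR adjusted p = 0.000385) on the log2 scale. Atf4, the factor of the integrated stress response, fell by 0.75 (edgeR adjusted p = 0.00538), and Bach2 by 0.56 (edgeR adjusted p = 0.049), a call lost in 11 of 16 alternatives. The macrophage markers beside them, 7 of 7 called higher, summed to 402.2 to 546.7 CPM at 12 weeks and 1641 to 2105 CPM at 2 years. T and NK cell markers summed to 2.676 to 5.546 CPM and 30.9 to 53.92 CPM, with 5 of 5 tested called higher and Trac at 0 in all libraries. B and plasma cell markers summed to 1.582 to 2.441 CPM and 236.4 to 1220 CPM, with 6 of 6 called higher and Mzb1 at 0 at 12 weeks. Neutrophil markers summed to 2.737 to 3.528 CPM and 7.986 to 39.4 CPM, with Ly6g at 0 at 12 weeks. The part of these cells in the values of Junb, Ier3 and the lists was not tested.

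The list of PAS factors and neuronal Npas4 targets had 9 tested members. Of these, 3 rose, 2 fell and 4 were not called (median 0.15, beside 25.8% of all tested genes higher and 26.2% lower). The partners of Npas4 moved in different directions: Arnt2 rose from 4.14 ± 1.14 to 10.5 ± 3.35 CPM (log2 fold change 1.34, edgeR adjusted p = 0.00113) and Arnt fell from 90.7 ± 2.36 to 62.9 ± 4.03 CPM (log2 fold change -0.53, edgeR adjusted p = 0.00175). Ahr, the aryl hydrocarbon receptor, rose from 6.67 ± 0.993 to 17.8 ± 4.05 CPM (log2 fold change 1.41, edgeR adjusted p = 0.000119). Nptx2, a neuronal Npas4 target, rose by 0.56 on the log2 scale (edgeR adjusted p = 0.0365), a call lost in 7 alternatives. Npas2, a clock factor of the same family as Npas4, was at 46.27 to 66.16 CPM at 12 weeks and at 13.44, 0.9809, 25.29 and 16.18 CPM at 2 years, so the groups did not overlap. It fell by 2.04 on the log2 scale (edgeR adjusted p = 0.0385), a call lost in 7 alternatives. Without 12-week replicate 4 this list had 3 calls in place of 5.

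Of 9 tested AP-1 target genes, 7 rose, none fell and 2 were not called (median 2.07, beside 25.8% of all tested genes higher). Ccnd1, the G1 cyclin D1, rose from 45.9 ± 9.46 to 193 ± 26.1 CPM (log2 fold change 2.07, edgeR adjusted p = 4.41e-06). The matrix protease gene Mmp3 rose by 2.55 (edgeR adjusted p = 8.7e-05), the protease inhibitor gene Timp1 by 3.21 (edgeR adjusted p = 0.000241) and the hyaluronan receptor gene Cd44 by 1.01 (edgeR adjusted p = 0.000111) on the log2 scale. The others that rose were Spp1, which encodes osteopontin (7.51 ± 7.46 and 382.5 ± 145 CPM), Mmp13, a collagenase gene (2.87 ± 1.08 and 24.3 ± 10.9 CPM), and Plau, the urokinase gene (17.6 ± 5.04 and 33.4 ± 5.75 CPM). Of 12 genes on the heat shock list, 4 rose, none fell and 8 were not called (median 0.36, beside 25.8% of all tested genes higher). The inducible genes Hspa1a (log2 fold change -1.40) and Hspa1b (log2 fold change -1.57), both high in 12-week replicate 4, were not called. Hmox1, haem oxygenase 1, rose by 1.84 (edgeR adjusted p = 8.86e-05) and the chaperone gene Hspa8 by 0.87 (edgeR adjusted p = 0.0021) on the log2 scale. The chaperonin gene Hspe1 rose by 0.93 (edgeR adjusted p = 0.000282), a call lost under the offset, where it stood at -0.001, and Dnaja1 rose by 0.40 (edgeR adjusted p = 0.0455), a call lost in 9 alternatives.

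**Figure D4:**
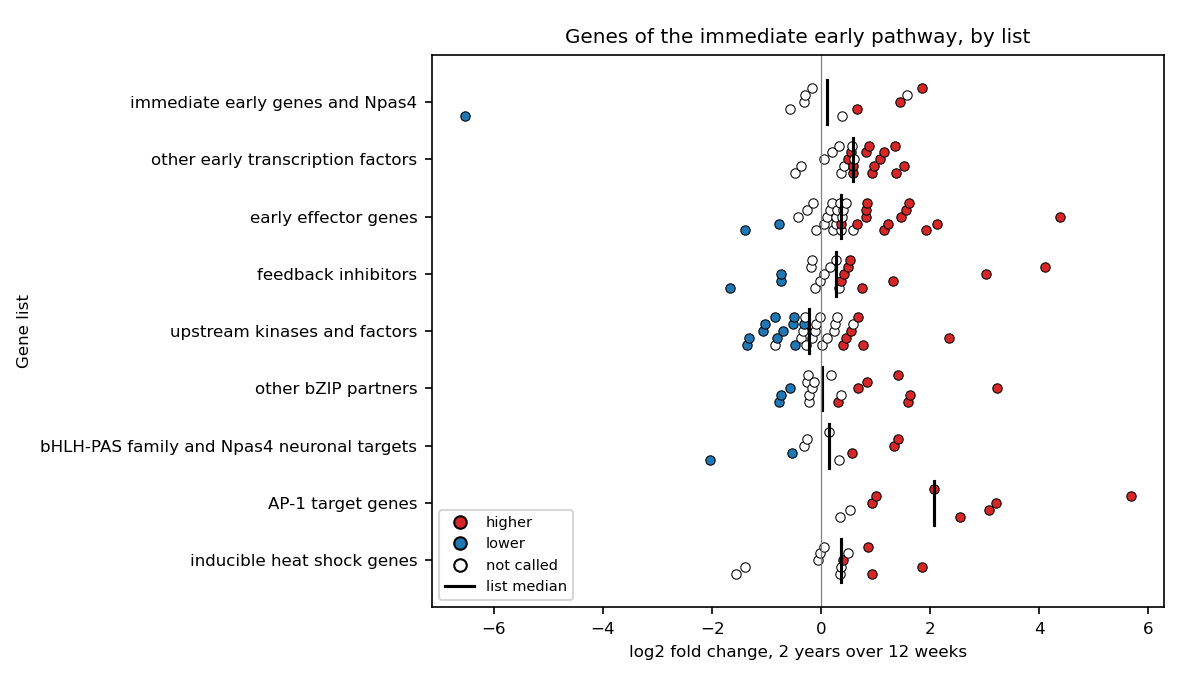
Log2 fold change (2 years over 12 weeks) of every tested gene in the 10 chosen genes and in the 8 pathway lists, 1 point per gene, red where called higher, blue where called lower and open where not called, with the list median as a bar. The medians run from -0.22 for the upstream kinases and factors to 2.07 for the AP-1 target genes, and Npas4 lies at -6.53, below all other points.

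The 5 tested genes most like Fos across the 8 libraries were Nnat, Slc6a13, Xlr4a, Chst1 and Zfp296, at root mean square differences of 0.63 to 0.76. Nnat was at 1.965, 4.082, 8.914 and 5.961 CPM at 12 weeks and 1.797, 14.29, 39.79 and 12.57 CPM at 2 years, and like Fos it was lowest in 2-year replicate 1 and highest in 2-year replicate 3 of the old group. It was not called (log2 fold change 1.69, edgeR adjusted p = 0.124). Chst1, a sulfotransferase gene, rose from 4.62 ± 2.02 to 13.9 ± 5.10 CPM (log2 fold change 1.58, edgeR adjusted p = 0.00387) and Zfp296 by 1.65 on the log2 scale (edgeR adjusted p = 0.00829).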

How the data were processed

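RNA sequencing of total RNA from mouse aorta (8 libraries) was deposited by the authors as raw counts per gene symbol, per the labels and the file headers. The submitters' processing notes name the genome build GRCm39. For the aligner, counting tool, annotation and strand setting, the sources used here give nothing.

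Genes were tested with edgeR 4.0.16 (R 4.3.3): filterByExpr, TMM scaling, robust quasi-likelihood fit with age as the term, Benjamini-Hochberg adjustment over 13978 genes. SE is derived from the F statistic. CPM use TMM-scaled library sizes, and log2 CPM a prior count of 2. Alternatives were RLE scaling, DESeq2 1.42.0, limma 3.58.1 (voom), no filter, a replicate block, an offset for transcript length and GC (natural splines, 4 degrees of freedom each), that offset with the block, both replicates 3 left out and each library left out. Lengths were those of the longest protein-coding transcript in GENCODE M21 (build GRCm38), found for 97.5% of tested genes. Pairs of libraries of 1 age differed by 22.5 to 144.6 times the variance of counting (chi-square per degree of freedom). The fit was tested on simulated data.

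The genes and lists were chosen with earlier results of these data known. Named from each list were up to 4 called genes with the smallest p, and the 5 genes most like Npas4 and Fos. A gene that this rule takes is not reported here. Relatives, chromosomal neighbours, Srf and Creb1 were added by family, position or role, and Hspa1a, Hspa1b, Ccn1, F3, Gadd45g, Dusp10, Atf4, Bach2, Npas2, Spp1, Mmp13 and Plau after their values were seen.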

Additional observations from a re-analysis of the deposited data

Results flagged for a closer look

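Over 76 genes, 152 groups of 4 libraries were examined, and in 12 of them 1 library lay far from the other 3 (by Dixon's test of the gap over the range). For independent, normally distributed values chance gives about 1 in 20 groups. Some of these genes, Hspa1a, Hspa1b, Gadd45g and Plau among them, were named after their values were seen. The count can therefore not be set against that rate. Among the 10 genes, Npas4 was at 25.2 CPM in 12-week replicate 1 against 11.06 to 12.53 CPM in the other young libraries. In 12-week replicate 4, Fosb was at 23.68 CPM against 6.931 to 8.766 CPM, Jun at 226 CPM against 68.96 to 93.03 CPM and Atf3 at 56 CPM against 6.738 to 9.87 CPM. The same library held Hspa1a at 249.4 CPM against 27.08 to 33.77 CPM and Hspa1b at 307.6 CPM against 31.27 to 40.24 CPM. Fam193b was at 83.76 CPM in 12-week replicate 1, the library that was also high for Npas4, against 46.8 to 49.97 CPM, and Gadd45g at 10.22 CPM against 7.583 to 8.026 CPM.

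In the old group, Batf2 was at 3.367 CPM in replicate 1 against 1.749 to 2.016 CPM. Creb1 was at 71.01 CPM in the same library against 58.06 to 59.65 CPM. Arnt2 was at 15.49 CPM in replicate 4 against 8.487 to 9.168 CPM. Plau was at 24.82 CPM in replicate 2, below the 35.76 to 36.6 CPM of the others.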

How the results depend on the processing

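Of 1213 gene values under an alternative (76 genes), 1112 kept their direction and their side of the threshold, 60 were no longer called, 18 were newly called and 23 changed sign. With the length and GC offset the sign changed for Egr1 (0.094), Creb1 (0.305), Bach2 (0.054), Xlr4a (-0.102), Ccn1 (-0.268) and Hspe1 (-0.001), and with the offset and replicate block for Egr1 (0.053), Creb1 (0.304), Bach2 (0.031), Xlr4a (-0.195) and Hspe1 (-0.004). It changed with limma voom for Atf3 (0.005) and Nr4a1 (0.019) and with the replicate block for Atf3 (0.009). Leaving out 1 library at a time gave -0.861 to 0.657 for Atf3, -0.506 to 0.232 for Jun, -0.594 to 0.214 for Nr4a1, -0.408 to 0.007 for Egr1, -1.705 to 0.065 for Hspa1a and -0.238 to 1.001 for Ccn1. For all of them but Egr1 the highest value was the fit without 12-week replicate 4. All 120 group means recomputed for the 10 genes moved by less than 1 SD. With the replicate block the list of PAS factors and neuronal Npas4 targets had 3 calls in place of 5. Leaving out 1 library at a time gave 3 to 5 calls in that list and 7 to 10 among the feedback inhibitors, against 11. Fos was newly called with the replicate block (1.48, edgeR adjusted p = 0.0167) and with the offset and block (1.17, edgeR adjusted p = 0.0382), and without 2-year replicate 1 (1.92). Dusp2 was at 3.37 with both replicates 3 left out, Ccl2 at 3.45, Batf at 2.56 and Timp1 at 2.37 with the offset, which also took F3 to -1.20 and Atf4 to -1.12. The cause of these shifts was not tested. DESeq2 gave no adjusted p for Atf3, Hspa1a and Hspa1b. Deviations from the group mean correlated between same-numbered libraries of the 2 ages at -0.308, -0.116, 0.051 and 0.025. No library correlated best with its own number. With 4 libraries a group, this check cannot decide whether the numbers mark pairs. No scaling moved the median of all genes by more than 0.06. With 4 libraries a group and counts of 0 to 7, the Npas4 level at 2 years is known only as near the limit of detection.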
